A study of Rattus norvegicus with 6 samples.

Results

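The genes described here are 3 proteases that degrade bone matrix, Ctsk, Mmp9 and Mmp2, and 2 inhibitors of resorption, Timp1 and Tnfrsf11b. They were chosen by name and role, as 5 Ensembl gene IDs among the 32545 gene rows of a femur RNA-seq count table. The rule for choosing them holds no cut on measured values, but it was written with other results of these data known. All 5 IDs were in the table and all 5 had enough reads to be tested. The pairs of ID and symbol were given with the choice of genes. None of the 5 could be checked, because the rat gene table used here pairs none of these IDs with a symbol. Each gene is therefore given with its ID at first use.

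Polyadenylated RNA was sequenced from femurs of Wistar rats, an outbred laboratory strain. The control group (NC 1 to NC 3 in the labels, controls 1 to 3 here) and the group under chronic sleep deprivation (CSD 1 to CSD 3) had 3 libraries each, and the comparison asks how deprivation bears on gene expression in growing bone. The method and length of deprivation, the sex of the rats, the part of the femur and whether marrow was kept are not given in the labels or the series text. The series description gives all rats as 12 weeks old, whereas the sample labels give 12, 13 and 14 weeks for controls 1 to 3 and 15, 16 and 17 weeks for CSD 1 to CSD 3. Labelled age and treatment cannot be told apart. Whether each library stands for its own rat is not labelled, and p-values then cover no more than the spread among these libraries, which may be technical.

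Bone is resorbed by osteoclasts, large cells formed from the monocyte lineage that seal off a patch of bone, acidify it to dissolve the mineral and then digest the exposed collagen. Cathepsin K, encoded by Ctsk, is the main collagen-degrading enzyme of the acid space under the osteoclast. Mmp9 and Mmp2 encode the gelatinases, zinc proteases that cut denatured collagen and other matrix proteins. Mmp9 is made by osteoclasts and also by neutrophils, and Mmp2 largely by fibroblast-like and bone-forming cells. Timp1 encodes a secreted inhibitor of matrix metalloproteinases. Tnfrsf11b encodes osteoprotegerin, a decoy receptor that binds RANKL, the cytokine that drives osteoclast formation, and so limits the number of osteoclasts.

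Upstream sequences are shown for Ctsk and Timp1, the only members for which one was at hand. The RefSeq promoter table, on the GRCr8 build, matched these 2 of the 5 symbols. The counts themselves were made on another build, rn6. For each gene the 250 bases before the annotated start are given 5′ to 3′ on the gene's strand, with matches to the searched motifs in capitals. The Ctsk window is chr2:185747298-185747547 on the plus strand. The Timp1 window is chrX:3771123-3771372 on the minus strand.
Ctsk: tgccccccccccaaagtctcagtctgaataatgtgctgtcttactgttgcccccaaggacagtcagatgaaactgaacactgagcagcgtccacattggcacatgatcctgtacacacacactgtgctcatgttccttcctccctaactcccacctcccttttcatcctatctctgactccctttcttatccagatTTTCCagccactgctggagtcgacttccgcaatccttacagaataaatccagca
Timp1: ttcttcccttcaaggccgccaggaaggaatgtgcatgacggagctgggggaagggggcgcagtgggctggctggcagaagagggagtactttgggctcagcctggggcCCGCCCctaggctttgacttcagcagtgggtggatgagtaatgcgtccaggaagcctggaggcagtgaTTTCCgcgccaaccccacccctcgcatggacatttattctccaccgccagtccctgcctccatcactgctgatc
Both strands were searched for TGANTCA (the AP-1 site), GGAAA (the core bound by NFAT factors), TATAAA (the TATA box), GGGCGG (the GC box) and CACGTG (an E-box). Ctsk held 1 match, a GGAAA on the opposite strand whose capitals begin 54 bases before the start. Timp1 held a GGAAA on the opposite strand at 74 bases and a GGGCGG on the opposite strand at 142 bases before the start. Of the 33469 promoters in the table, 56.9% held GGAAA and 30.5% held GGGCGG in the same window. The AP-1 site, the TATA box and the E-box, held by 6.34%, 12.9% and 5.59% of promoters, were not in either window as spelled here. Variant spellings were not searched for, so an AP-1 site of another spelling may be present. A match describes these letters only and shows no binding.

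Libraries held 8366443 to 9572898 reads in genes. Levels are given as CPM, gene counts scaled to the usual common library total with TMM factors, and group values as mean ± SD over 3 libraries. CPM is not corrected for transcript length, so levels of different genes were not ranked against each other. In whole tissue, fewer cells of a type and less RNA per cell cannot be told apart. Of the 13431 genes tested between CSD and control, 0.00% had a Benjamini-Hochberg adjusted p under 0.05 in edgeR's quasi-likelihood test, and none of the 5 members did. An unadjusted p under 0.05 was reached by 12.5% of the tested genes (1679) and by 2 of the 5 members, Ctsk and Timp1. DESeq2, fitted to all genes, called 297 genes, 1.96% of those it gave an adjusted p, and 0 of the 5 members.

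Of the proteases, Ctsk (ENSRNOG00000021155) had lower levels in every CSD library than in any control. Controls 1, 2 and 3 had 646, 851 and 650 CPM, and CSD 1, 2 and 3 had 224, 515 and 478 CPM. The 2 groups did not overlap, and CSD 1 stood well below the other CSD libraries. The control mean was 716 ± 117 CPM and the CSD mean 406 ± 159 CPM (SD, n = 3), from 1919 to 8028 reads per library. The fitted CSD level was 0.567 times the control level, with a 95% interval of 0.356 to 0.904. This interval, like those of the other members, is not adjusted for the number of genes tested. The fitted log2 fold change was -0.82 (SE 0.29). It did not pass the threshold (edgeR, adjusted p = 0.343, unadjusted p = 0.0227), and the exact two-sided permutation test gave p = 0.1, the smallest that 3 libraries against 3 allow. Without CSD 1 the log2 fold change was -0.53 (edgeR, adjusted p = 0.154, unadjusted p = 0.0134). Without control 2 the log2 fold change was -0.67 (edgeR, adjusted p = 0.629, unadjusted p = 0.0803). Over 16 alternatives the adjusted p ran from 0.0753 with DESeq2 to 0.634 without CSD 2 (edgeR). The unadjusted p ran from 0.00188 with DESeq2 to 0.0803 without control 2 (edgeR). Leaving out CSD 2 gave the largest log2 fold change in size, -1.04 (edgeR, unadjusted p = 0.0139).

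Mmp9 (ENSRNOG00000017539) had a slightly higher mean in CSD, the only member with a fitted value above 0. Its levels were 703, 497 and 600 CPM in controls 1 to 3 and 584, 807 and 784 CPM in CSD 1 to CSD 3. CSD 2 and CSD 3 lay above all controls, whereas CSD 1 lay below controls 1 and 3, so the groups overlapped. The means were 600 ± 103 CPM and 725 ± 122 CPM (SD, n = 3), from 4691 to 7035 reads. The fitted ratio of CSD to control was 1.21 (95% interval 0.903 to 1.62; edgeR, adjusted p = 0.551). This interval holds no change as well as a rise of up to 1.62 times. Without CSD 1 the log2 fold change was 0.40 and without control 2 it was 0.16, against 0.27 with all libraries.

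Mmp2 (ENSRNOG00000016695) varied more among controls than between the groups. Controls 1, 2 and 3 had 115, 320 and 203 CPM, and CSD 1, 2 and 3 had 158, 136 and 153 CPM. The controls spanned a 2.80-fold range and held all CSD values within it, while the CSD libraries spanned 1.17-fold. The control mean was 213 ± 103 CPM and the CSD mean 149 ± 11.8 CPM (SD, n = 3), from 1021 to 3024 reads. The fitted log2 fold change was -0.51 (SE 0.31; 95% interval -1.23 to 0.20; edgeR, adjusted p = 0.513). Its size rested on the controls, with -0.09 without control 2 and -0.81 without control 1 (edgeR, adjusted p = 0.919 and 0.122).

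**Figure D1:**
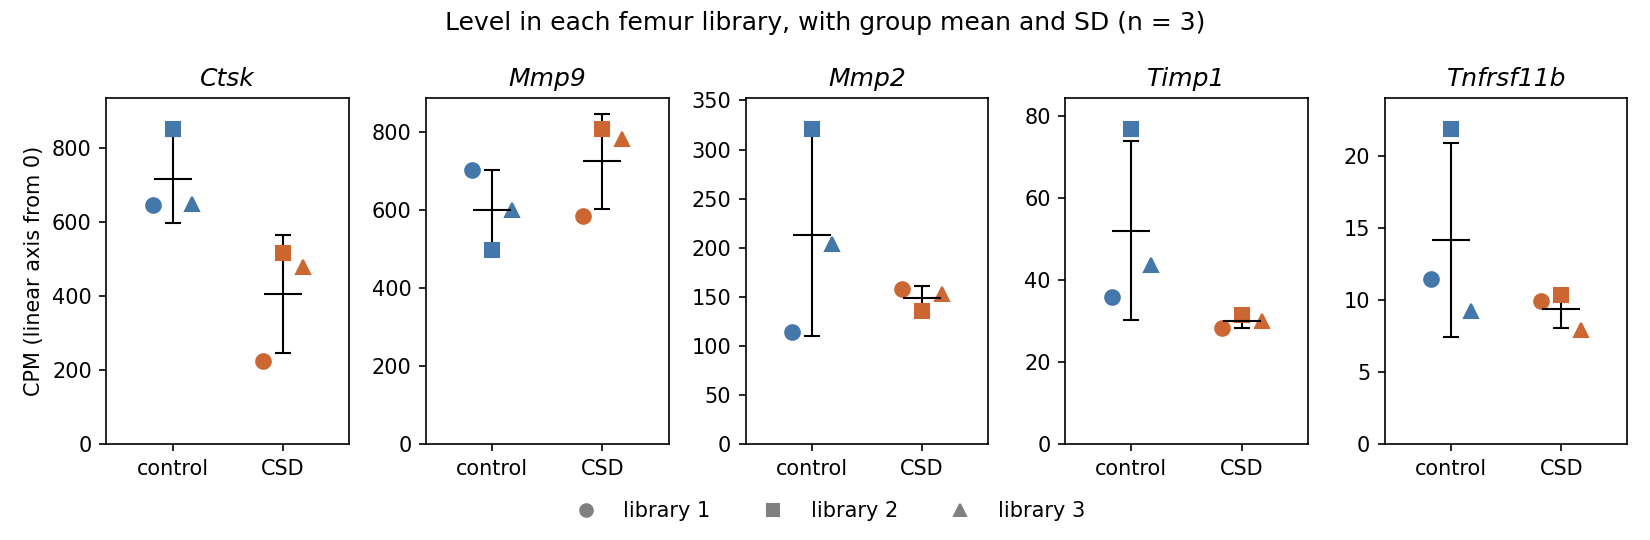
Level of each gene in CPM, on a linear axis from 0, for 3 control libraries (blue) and 3 CSD libraries (orange); marker shape gives the library number, and the black bar and whiskers give the group mean and SD. Ctsk and Timp1 have all CSD points below all control points, and control 2 is the highest point for each gene other than Mmp9.

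Of the inhibitors, Timp1 (ENSRNOG00000010208) was the other member with no overlap between the groups. It had 35.7, 76.6 and 43.7 CPM in controls 1 to 3 and 28.2, 31.5 and 30.0 CPM in CSD 1 to CSD 3. The CSD libraries lay close together, within a 1.12-fold range, and control 2 stood far above the other controls. The means were 52.0 ± 21.7 CPM and 29.9 ± 1.68 CPM (SD, n = 3), from 242 to 723 reads. The fitted CSD level was 0.575 times the control level (95% interval 0.380 to 0.872), a log2 fold change of -0.80 (SE 0.26). It did not pass the threshold (edgeR, adjusted p = 0.316, unadjusted p = 0.0152; exact permutation test p = 0.1). Without control 2 the log2 fold change was -0.41 (edgeR, adjusted p = 0.562, unadjusted p = 0.0281). Over the tests of the 16 alternatives the adjusted p ran from 0.0987 to 0.726 and the unadjusted p from 0.00254 to 0.0429. The gene lies within the span of Syn1, a synaptic vesicle protein gene, in the RefSeq annotation, and the strand setting of the counting is not known here, so reads of the 2 genes may not be fully separated. Likewise the span of Ctsk overlaps the pseudogene Eef1e1-ps1.

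Tnfrsf11b (ENSRNOG00000008336) had the fewest reads of the members, 67 to 206 per library. Its levels were 11.5, 21.8 and 9.20 CPM in controls 1 to 3 and 9.90, 10.3 and 7.89 CPM in CSD 1 to CSD 3. Control 2 stood far above every other library, and control 3 lay below CSD 1 and CSD 2. The control mean was 14.2 ± 6.73 CPM and the CSD mean 9.37 ± 1.30 CPM (SD, n = 3). The fitted log2 fold change was -0.60 (SE 0.33; 95% interval -1.34 to 0.15; edgeR, adjusted p = 0.468), and without control 2 it was -0.14 (edgeR, adjusted p = 0.870).

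Control 2 was the highest of the 6 libraries for 4 of the 5 members, as it was for 22.1% of tested genes. As a group, 4 of the 5 members had a fitted value below 0, as did 49.7% of all tested genes, and the fifth was Mmp9. In 2 of 5 members all CSD libraries lay below all controls, as they did in 8.05% of tested genes. Without control 2 these were still Ctsk and Timp1, beside 12.2% of tested genes. The median log2 fold change was -0.60 over the 5 members and 0.00 over all tested genes. Without control 2 the members' median was -0.14, with -0.67 for Ctsk and -0.41 for Timp1.

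**Figure D2:**
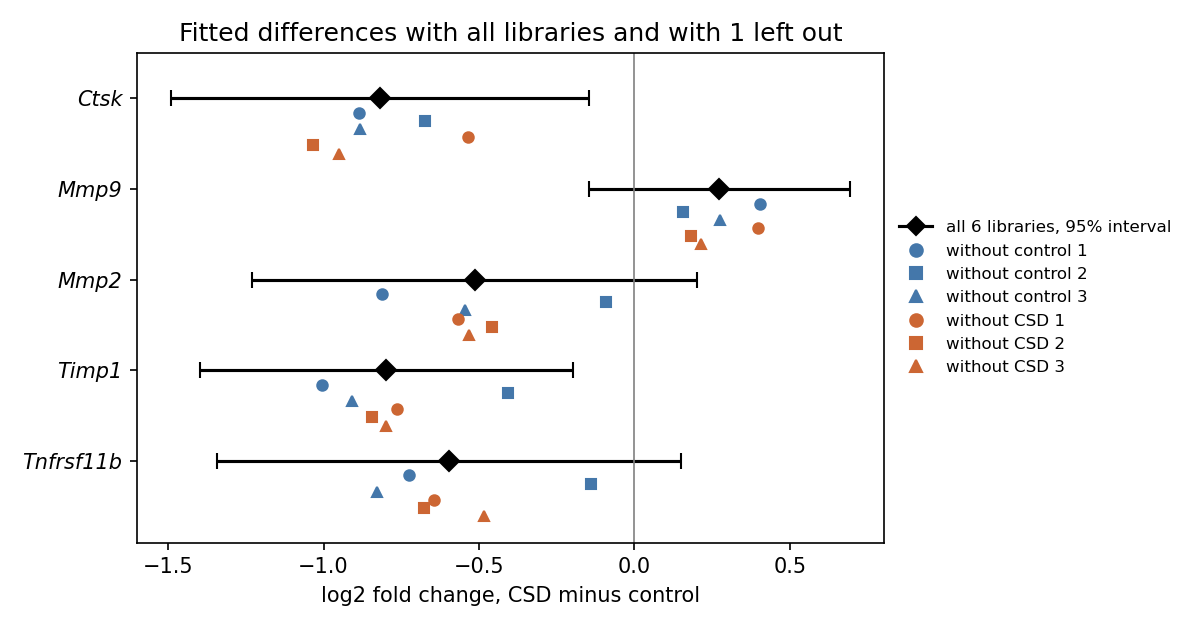
Log2 fold change of CSD minus control for each gene. Black diamonds and bars give the fit with all 6 libraries and its 95% interval, and coloured markers give the fit with the named library left out. The values for Mmp2 and Tnfrsf11b come within 0.14 of 0 without control 2, and that for Ctsk is smallest in size without CSD 1.

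The controls differed widely from each other for Mmp2, Timp1 and Tnfrsf11b. On the log2 CPM scale control 2 lay 1.07 above the mean of the other controls for Mmp2, 0.95 above for Timp1 and 1.07 above for Tnfrsf11b. The same difference was 0.39 for Ctsk and -0.39 for Mmp9, and its median over all tested genes was 0.02. Control 1 was at -1.15 against the mean of the other controls for Mmp2, farther out than control 2, and its values were -0.69 for Timp1 and -0.30 for Tnfrsf11b. Control 3 was at -0.77 for Tnfrsf11b. The 3 control 2 values near 1 exceeded those of 97.8%, 96.9% and 97.9% of tested genes, in the same order. Among controls the SD of log2 CPM was 0.74 for Mmp2, 0.57 for Timp1 and 0.64 for Tnfrsf11b, against a median of 0.21 over tested genes. Among CSD libraries it was 0.12, 0.08 and 0.20, against a median of 0.21. Ctsk went the other way, with an SD of 0.23 among controls and 0.67 among CSD libraries, the latter larger than in 91.9% of tested genes. No marker genes of other cell types could be matched to the table, so whether cell makeup moved with control 2 or CSD 1 was not tested.

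Over the 6 libraries Timp1 had the member profile nearest to those of Mmp2, Tnfrsf11b and Ctsk. Likeness was measured as the root mean square difference between 2 genes' log2 CPM after centring each on its own mean, so that a smaller value means a closer profile. Timp1 and Tnfrsf11b differed by 0.24 and Timp1 and Mmp2 by 0.25, where a tested gene differed from Timp1 by a median of 0.54. Tnfrsf11b ranked 163 and Mmp2 196 in closeness to Timp1 among 13430 other genes, so many other genes were closer still. Mmp2 and Tnfrsf11b were less alike, at 0.37, where Mmp2 ranked 1256 in closeness to Tnfrsf11b. Ctsk differed from Timp1 by 0.41, and Timp1 ranked 203 in closeness to Ctsk. Mmp9 differed from each other member by 0.66 to 0.69, more than its median of 0.34 to all genes. The other members' own medians to all genes were larger, from 0.52 for Tnfrsf11b to 0.65 for Ctsk, so from their side Mmp9 was less far out. These values describe 6 libraries that share the control 2 deviation, and no test was made on them.

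Ratios of reads between members within a library need no scaling between libraries. They are ratios of reads and not of molecules, since transcript lengths differ, and they were given no test. The reads of Mmp9, a target of Timp1, were 19.7, 6.49 and 13.7 times those of Timp1 in controls 1 to 3 and 20.7, 25.6 and 26.1 times in CSD 1 to CSD 3. The mean log2 ratio among controls was 3.59 ± 0.82 and that among CSD libraries 4.59 ± 0.18 (SD, n = 3), a difference of 0.99, which was 0.55 without control 2. All CSD libraries lay above all controls, but control 1 (exact binomial 95% interval 17.6 to 22.1) and CSD 1 (18.2 to 23.7) were not separated beyond counting error. Timp1 had no overlap by itself, whereas Mmp9 overlapped, so this separation is not independent of that of Timp1. How often other pairs of genes separate was not computed. The binomial intervals were computed within each library. These intervals cover counting error only.

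The other ratios overlapped between the groups. Mmp2 reads were 3.21, 4.18 and 4.65 times Timp1 reads in controls 1 to 3 and 5.62, 4.31 and 5.10 times in CSD 1 to CSD 3, a log2 difference of 0.33, which was 0.17 without control 1. CSD 2 lay below control 3. Ctsk reads were 56.4, 39.0 and 70.7 times Tnfrsf11b reads in controls 1 to 3 and 22.6, 49.9 and 60.6 times in CSD 1 to CSD 3. The log2 difference was -0.39. It turned to 0.03 without CSD 1, was -0.20 without control 3, and was -0.63 without control 2 and -0.68 without CSD 3, so its size depended on each of these libraries and its direction on CSD 1.

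**Figure D3:**
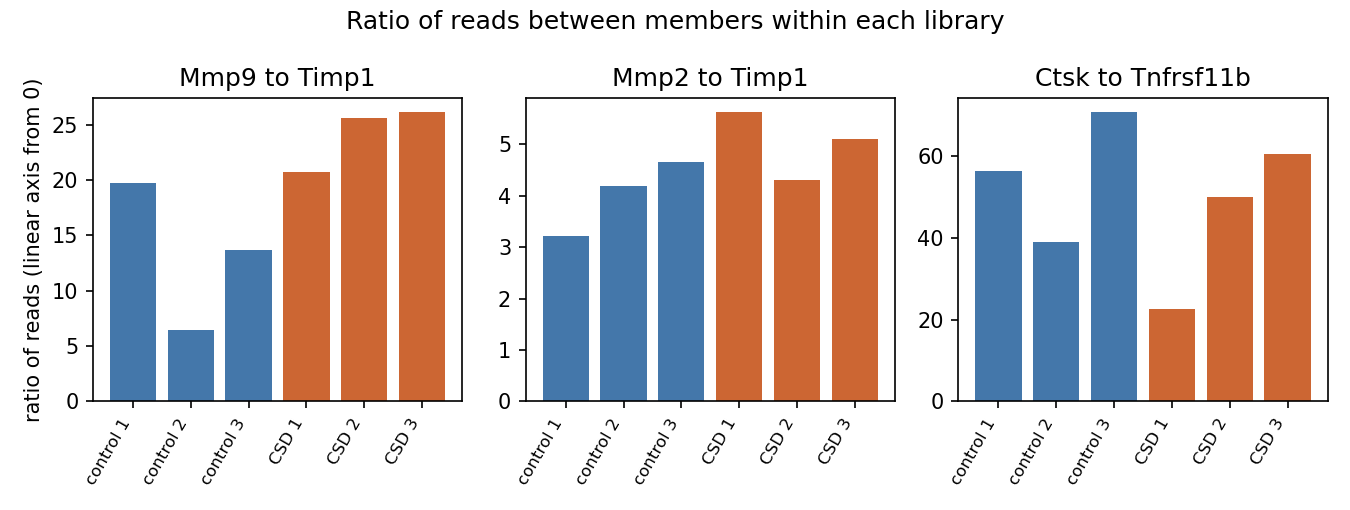
Ratio of reads between pairs of genes in each library, on linear axes from 0, with controls in blue and CSD in orange. For Mmp9 to Timp1 the CSD bars reach 20.7 to 26.1 and the control bars 6.49 to 19.7, and for the other pairs the groups overlap.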

How the data were processed

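The deposited table holds unnormalized read counts, a row per gene and a column for each of the 6 femur libraries (3 control, 3 CSD). The submitters' processing notes name HISAT2 2.2.1, HTSeq 0.12.4 and rn6, without their roles. Annotation release and strand setting: not given in the sources used here. Of all reads, 36.2% to 38.2% were in genes. The 5 closing rows of the table name no gene and were left out of library sizes and tests: 45.5% to 47.1% of reads lay outside features, 8.56% to 9.46% had more than 1 alignment, 3.11% to 3.69% had low mapping quality, 2.90% to 3.81% were unaligned and 0.624% to 0.750% were ambiguous.

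Genes were filtered with filterByExpr (13431 kept, with 99.8% of gene reads) and scaled with TMM factors (0.912 to 1.07). CSD was compared with control by edgeR 4.0.16's quasi-likelihood test, two-sided, with no covariate, in R 4.3.3. P-values were adjusted over all tested genes by the Benjamini-Hochberg method, with a threshold of 0.05. Log2 fold changes have a prior count of 0.125, and their SE is the absolute value divided by the square root of F. Log2 CPM have a prior count of 2. The test was also run on simulated counts whose planted changes were larger than that fitted for any member. That run therefore does not show whether changes of the members' size could be called. Alternatives included DESeq2 1.42.0 and limma 3.58.1 (voom). No pair of libraries in a group was a duplicate (chi-square per degree of freedom at least 18.7).

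The members and lists were chosen with earlier results of these data known. The rule named all 5 members whatever their values. Lists of other osteoclast, metalloproteinase and inhibitor genes and of cell type markers, and the names of the genes with the nearest profiles, are not analysed here, since the IDs could not be matched to symbols.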

Additional observations from a re-analysis of the deposited data

How the results depend on the processing

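Each member kept the direction of its log2 fold change and stayed above the threshold in all 16 alternatives: other scalings, filters and tests, the block and leaving out each library. Ranges were -1.04 to -0.53 for Ctsk, 0.13 to 0.41 for Mmp9, -0.81 to -0.09 for Mmp2, -1.01 to -0.41 for Timp1 and -0.83 to -0.14 for Tnfrsf11b. Library totals alone moved the median of all genes to -0.13, and relative to it the values were close to those with TMM. The count of 0 genes called overall became 112 with no filter (104 higher, 8 lower), 297 with DESeq2 (208 higher, 89 lower) and 104 with a replicate block from the titles' numbers (103 higher, 1 lower). With 1 library left out it was 0 to 230 (0 to 79 higher, 0 to 194 lower), the highest without CSD 1, with 151 without control 1 and 73 without CSD 3. The cause was not tested, and none of these fits called a member. The labels do not say that a replicate number pairs libraries, and the deviations from group means correlated at -0.01, -0.06 and 0.17 for libraries 1, 2 and 3; only control 3 and CSD 3 correlated best with their own number. With the block the log2 fold changes were -0.90 for Ctsk, 0.27 for Mmp9, -0.40 for Mmp2, -0.72 for Timp1 and -0.51 for Tnfrsf11b. The members with all CSD libraries below all controls numbered 2 to 3 with 1 library left out, a check chosen after seeing the data. Among all tested genes the share was 8.05% with all libraries and 12.2% without control 2. It was not computed for the other libraries left out, so the count of 3 has no share beside it. Depth limits Tnfrsf11b most, with 67 reads in CSD 3. The planned gene lists were not run.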
